A study of Mus musculus with 12 samples.

Results

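*Tbx5*, *Tbx4* and *Pitx1*, the transcription factor genes that set apart forelimb and hindlimb buds, were followed in the β-catenin and H3K27ac ChIP-seq peak lists of mouse forelimb buds. They are 3 of the 21938 protein-coding genes of the annotation, chosen by name, by a rule that uses no measured value, though with earlier results of these data known. Each peak summit within 200 kb of one of the 3 gene bodies was assigned to that gene, unless it lay nearer to *Tbx2* or *Tbx3*, the T-box genes next to *Tbx4* and *Tbx5*. This gave 317 of the 268431 summits in the 12 lists, and 163 others were left out as nearer to *Tbx2* or *Tbx3*.

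All samples were forelimb buds of wild-type Swiss Albino embryos, collected 6 h after treatment at E10.5. The pregnant females were injected, those of the wild-type controls with DMSO in PBS and those of the C59-treated embryos with C59. C59 was given in PBS with methylcellulose, Tween-20 and DMSO, so that the treatments also differed in vehicle. C59 inhibits the WNT acyltransferase Porcupine and so keeps WNT ligands from being secreted. β-catenin, the nuclear effector of canonical WNT signaling, and H3K27ac, the acetylated lysine of histone H3 that marks active promoters and enhancers, were each precipitated in 2 replicates per treatment. The study describes the replicates as biological and made from pooled buds, so that every value is a mean over the mesenchyme, ectoderm and other cells of whole buds, and a signal in fewer cells cannot be told apart from a weaker signal per cell. Hindlimb buds were not analysed here, so that the hindlimb genes were seen only in the tissue that does not normally use them.

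Forelimb buds begin to form when *Tbx5* activates *Fgf10* in the flank mesenchyme, which starts the feedback with FGFs of the apical ectodermal ridge and is maintained by WNT signaling. In hindlimb buds *Tbx4*, the closest relative of *Tbx5*, takes part in the same initiation, and the homeobox gene *Pitx1* acts upstream of *Tbx4* and gives the hindlimb its shape. *Pitx1* is normally silent in forelimb buds, and *Tbx4* is expressed there weakly if at all. *Tbx5* is also a heart gene, and *Tbx4* is also used in the lung and allantois.

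On mm10, *Tbx5* (ENSMUSG00000018263) occupies chr5:119832668-119885219 on the plus strand, 148 kb from *Tbx3*, with 1 other protein-coding gene reaching into its window. *Tbx4* (ENSMUSG00000000094) occupies chr11:85886422-85916097 on the plus strand, 44.5 kb from *Tbx2*, with 4 others. *Pitx1* (ENSMUSG00000021506) occupies chr13:55825051-55836192 on the minus strand, and 6 other protein-coding genes reach into its window. Distances are given in the direction of transcription from the gene start, negative upstream, unless the gene end is named.

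β-catenin summits were listed around all 3 genes in wild-type controls and around none of them after C59. The sequences under the summits that carry this result are shown first, from the GRCm38 genome. Windows of 200 bases centred on a summit are printed on the plus strand, and capitals mark the TCF/LEF core ATCAAAG or TTCAAAG, the DNA motif of the factors that bring β-catenin to chromatin, on either strand. The upstream summit of *Tbx5* and that of *Pitx1* hold 1 such core each. The strongest summit of *Tbx4* and the one upstream of its start hold none. The strongest summits of *Tbx5* and *Pitx1*, whose windows are not printed, also hold none.
Tbx5, upstream summit, chr5:119795423-119795622: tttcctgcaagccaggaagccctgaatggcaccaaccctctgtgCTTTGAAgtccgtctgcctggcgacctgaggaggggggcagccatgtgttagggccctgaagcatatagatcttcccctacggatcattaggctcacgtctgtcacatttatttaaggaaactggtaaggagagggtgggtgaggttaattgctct
Tbx4, strongest summit, chr11:86016815-86017014: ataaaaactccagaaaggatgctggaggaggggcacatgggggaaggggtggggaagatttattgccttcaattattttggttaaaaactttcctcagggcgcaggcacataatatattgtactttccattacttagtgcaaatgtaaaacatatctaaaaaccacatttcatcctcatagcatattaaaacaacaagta
Tbx4, upstream summit, chr11:85876058-85876257: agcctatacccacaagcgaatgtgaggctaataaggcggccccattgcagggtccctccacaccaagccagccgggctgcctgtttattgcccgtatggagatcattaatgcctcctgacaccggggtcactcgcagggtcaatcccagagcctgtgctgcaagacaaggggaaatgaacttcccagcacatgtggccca
Pitx1, upstream summit, chr13:55858977-55859176: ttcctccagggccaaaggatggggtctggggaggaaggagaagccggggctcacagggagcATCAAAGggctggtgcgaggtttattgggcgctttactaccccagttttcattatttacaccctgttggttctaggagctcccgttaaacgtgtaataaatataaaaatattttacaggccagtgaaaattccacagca

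The 4 cores found under summits of these genes are shown with 7 bases on each side, read on the strand of the core, to compare what surrounds them. The first 3 belong to *Tbx5* and lie 53, 14 and 40 bases from their summits, and the fourth belongs to *Pitx1* and lies 36 bases from its summit.
Tbx5, chr5:119795460-119795480, minus strand: gacggacTTCAAAGcacagag
Tbx5, chr5:119793456-119793476, minus strand: ctcccaaTTCAAAGgattttg
Tbx5, chr5:120067264-120067284, minus strand: gagagagATCAAAGgcaaaaa
Pitx1, chr13:55859031-55859051, plus strand: agggagcATCAAAGggctggt

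A core was thus present in 3 of 7 windows of *Tbx5* (42.9%, 95% Wilson interval 15.8 to 75.0%), in 0 of 6 of *Tbx4* (interval up to 39.0%) and in 1 of 2 of *Pitx1* (9.45 to 90.5%). Over all wild-type β-catenin summits the share was 28.6%, which lies inside each of these intervals. The hexamer GGTGTG, the core of the T-box binding sequence, was in 1 window of *Tbx5* (at 192 kb) and 1 of *Tbx4* (at −10.3 kb), against 10.7% of all windows. TAATCC, the core bound by PITX proteins, was in 1 window of *Tbx5* (at 192 kb) and 1 of *Pitx1* (at 81.6 kb), against 6.62% of all windows. Both were searched on both strands, and a match describes these letters and not a bound site.

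In the consensus lists, which hold summits called on both replicates together and found in each, wild-type controls had 7 β-catenin summits at *Tbx5*, 6 at *Tbx4* and 2 at *Pitx1*. The replicate lists had 8 and 9 at *Tbx5*, 6 and 8 at *Tbx4*, and 6 and 5 at *Pitx1*. After C59 the number was 0 for each gene in the consensus list and in both replicate lists. The wild-type and C59 replicates therefore do not overlap for any of the 3 genes, and the exact permutation test gave a two-sided p = 0.33 each time, the smallest that 2 against 2 libraries can give. Of all 16238 wild-type summits only 1.35% lay in a C59 β-catenin peak, a share inside the interval of the 0 of 15 at these genes (95% Wilson interval up to 20.4%).

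**Figure D1:**
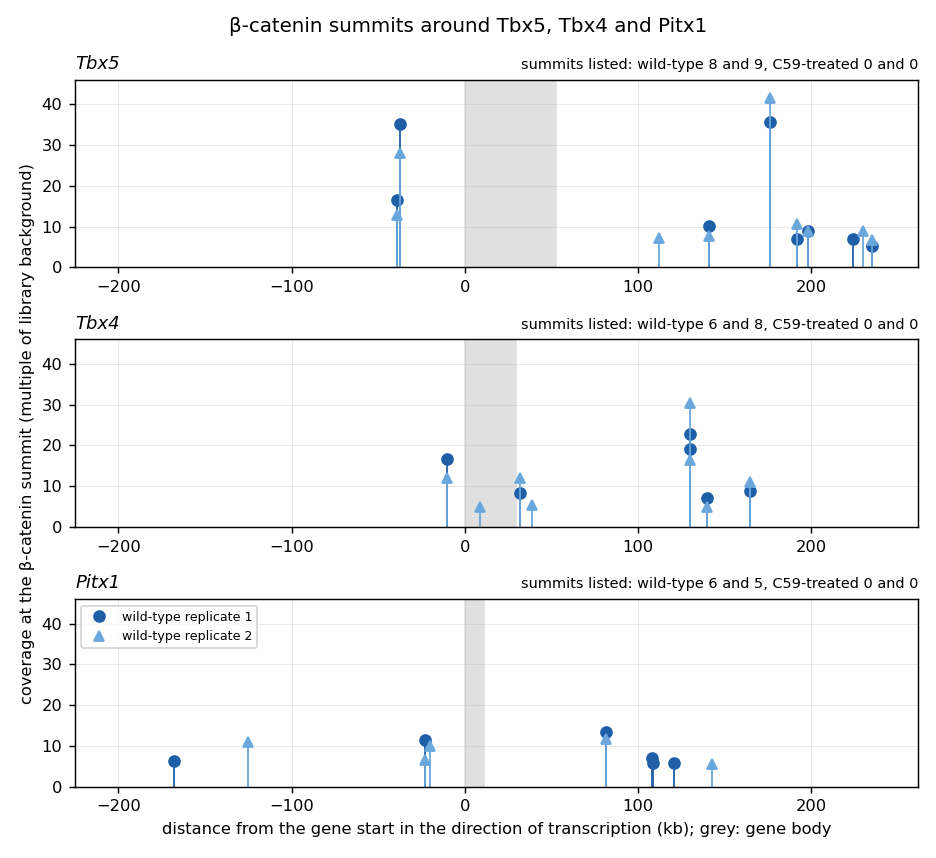
β-catenin summits in the 2 wild-type replicate lists, by distance from the gene start (x axis, kb) and coverage at the summit as a multiple of the library's background (y axis), with gene bodies in grey. The tallest stems stand at 176 kb from the *Tbx5* start (35.7 and 41.4), and no C59-treated replicate lists a summit in any panel.

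How firmly the absence can be read depends on the limit of each list. The fold enrichment and p of each listed summit were solved for the number of fragments covering it, and the lowest expected coverage in a library is its background, which was 1.57 and 1.81 fragments in the wild-type β-catenin libraries and 1.83 and 1.82 after C59. The C59 lists had a stricter limit, since their lowest −log10 p was 5.69 and 5.72 against 3.89 and 3.79 in wild-type controls, and a summit on plain background needed 11 fragments to be listed after C59 against 8 before. By −log10 p, 7 of 8 and 9 of 9 wild-type replicate summits at *Tbx5* would also have passed the C59 limit, at *Tbx4* 6 of 6 and 5 of 8, and at *Pitx1* 4 of 6 and 4 of 5. Over all wild-type summits these shares were 85.6% and 79.6% at the limit of C59 replicate 1. By fragments, scaled to the C59 background, fewer *Tbx4* summits pass. Listing needed 14 at chr11:85918101 and 12 at chr11:86026826, where wild-type replicate 1 had 13 and 11. The weakest summits of *Tbx4* and *Pitx1* are thus not shown to be lost. Nor is the weakest of *Tbx5*, chr5:120067234, which passed the C59 limit in wild-type replicate 2 only (−log10 p 3.90 and 6.52 in replicates 1 and 2). The stronger summits fell below the limit of both C59 libraries.

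The strongest β-catenin summit of the 3 loci lies 123 kb beyond the 3′ end of *Tbx5*, in intergenic sequence nearer to *Rbm19*, an RNA-binding protein gene of ribosome biogenesis. Its fold enrichment in the consensus list was 18.9, at a coverage of 114 fragments (exact 95% Poisson interval 94.0 to 137, counting error only), and 97.9% of all wild-type β-catenin summits had a lower fold. The replicates gave 15.7 and 18.2 fold with 56 and 75 fragments. Listing after C59 would have needed 14 fragments in either library.

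*Tbx5* had a second strong summit on its other side, 37.1 kb upstream at chr5:119795523, with a fold of 9.81 from 93 fragments (75.1 to 114). Replicate folds were 9.74 and 9.17. Beside it, 39.2 kb upstream at chr5:119793452, a weaker summit had a fold of 5.16 (replicates 5.41 and 4.52). Each of these neighbours holds TTCAAAG. The other 4 summits of *Tbx5* all lie downstream, at 141, 192, 198 and 235 kb, with folds of 6.71, 6.88, 6.88 and 3.80. The last of them, chr5:120067234, holds ATCAAAG and was near the limit in wild-type replicate 1, where 8 fragments covered it.

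At *Tbx4* the strongest summits form a pair 100 and 101 kb beyond the gene end, at chr11:86016522 and chr11:86016915, nearer to *Brip1*, a DNA repair helicase gene. Their consensus folds were 7.37 and 9.50. The replicates ordered them differently, with 8.40 and 5.82 at the first and 7.07 and 10.6 at the second. A summit at −10.3 kb, chr11:85876158, had a fold of 6.08 (replicates 7.34 and 5.83) and is the nearest to the *Tbx4* start. Another at chr11:85918101, 2.0 kb past the gene end, had a fold of 4.94 (4.01 and 5.92). The remaining 2, at 165 and 140 kb, had 6.69 and 3.88.

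*Pitx1* had no site as strong. Its 2 summits had a fold of 7.50 at chr13:55754615 (replicates 6.68 and 6.43), inside an intron of *Pcbd2*, a pterin metabolism gene, and of 6.28 at chr13:55859077 (6.46 and 4.24), 22.9 kb upstream of *Pitx1* within the non-coding gene *Gm47071*. Against the median fold of 6.75 over all wild-type summits, the strongest site of *Tbx5* stood far above, that of *Tbx4* above 76.8% of summits and that of *Pitx1* above 59.4%. None of the 15 summits lay less than 1 kb from an annotated TSS of any gene. The other 4 wild-type replicate 1 summits and 3 replicate 2 summits near *Pitx1* were each listed in 1 replicate only.

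Counting every summit within 200 kb, including those nearer to *Tbx2* or *Tbx3*, places the genes among all protein-coding genes, of which 74.8% had at least 1 wild-type β-catenin summit and the median gene had 2. *Tbx5* had 10, more than 96.5% of genes. *Tbx4* had 15, more than 99.1%. *Pitx1* had 2, the median, with 43.7% of genes below it. A T-box neighbour gene contributed 3 of the 10 summits at *Tbx5* and 9 of the 15 at *Tbx4*.

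Around their starts the forelimb gene and the hindlimb genes differed widely in H3K27ac. *Tbx5* carried a broad and dense acetylated domain on both sides of its gene start, *Tbx4* a faint peak at its start, and *Pitx1* no summit nearer to its body than 49.8 kb in any list. No merged consensus peak spanned the *Tbx5* gene start at chr5:119832668, and the nearest ones were chr5:119830748-119831929 and chr5:119835169-119836069. The lists report fold enrichment over coverage that macs2, run without input, took from the surrounding sequence where this was above the genome background. In a broad domain this expected coverage is itself high and the fold comes out low. Coverage as a multiple of the library's background is therefore given beside each fold.

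Near the *Tbx5* starts (3 annotated positions), the highest summit less than 1 kb away reached 72.9 and 69.7 times background in the wild-type replicates and 68.1 and 59.5 times after C59. The highest fold less than 1 kb from these starts was 2.18, 2.42, 2.60 and 2.48 in the same order. In wild-type replicate 1 the summit of 72.9 times lay in the peak 2.95 kb inside the gene, near an internal start. The fold of that peak was 2.15, so that highest fold and highest coverage can come from different summits. In wild-type replicate 2 that peak reached 64.5 times, so that the 69.7 there came from a different peak. At the *Tbx4* start the coverage was 4.09 and 5.89 times background in the wild-type replicates and 4.10 and 4.37 times after C59, with folds of 3.25, 4.63, 3.36 and 3.52. By coverage every library puts *Tbx5* at over 10 times *Tbx4*, whereas by fold every library puts *Tbx5* below *Tbx4*. *Pitx1* had no summit less than 1 kb from either of its starts in any of the 4 replicate or 2 consensus lists. In the replicate lists a summit on background would have needed between 3.47 and 3.72 times background to be listed.

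Of all protein-coding genes, 52.3% had an H3K27ac summit less than 1 kb from a TSS in both wild-type replicates, and these 11477 genes give the scale. Their median coverage was 32.2 times background, their median fold 10.6 and their median expected coverage 2.49 times background. *Tbx5*, with a mean of 71.3, was above 79.9% of them in coverage, yet its mean fold of 2.30 was above only 0.0349%, because its expected coverage of 31.2 times background was above 99.9%. *Tbx4*, with a mean of 4.99, was above 1.15% in coverage and 2.74% in fold. Only 29 wild-type consensus summits of 31466 (0.0922%) had an expected coverage at or above the highest of *Tbx5*.

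**Figure D2:**
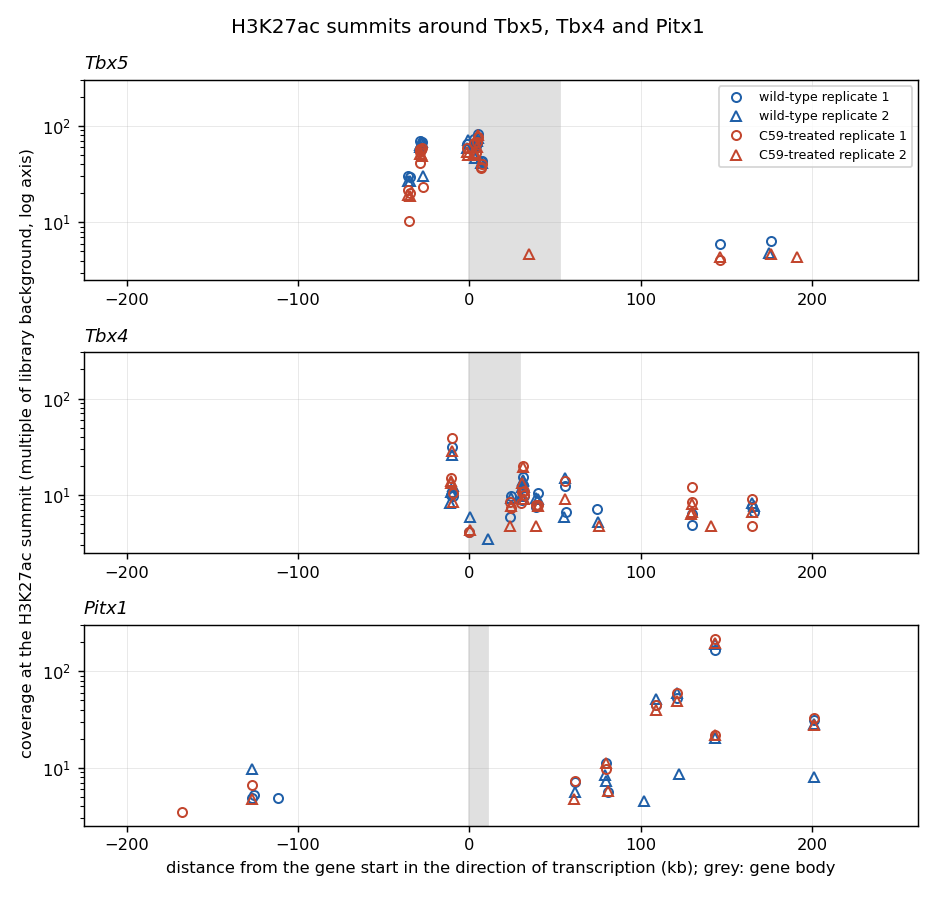
H3K27ac summits of the 4 replicate lists by distance from the gene start (x axis, kb) and coverage (y axis, multiple of library background, log axis), wild-type in blue and C59-treated in red, with gene bodies in grey. The dense summits of *Tbx5* run from −35.9 to 7.14 kb, the highest of *Tbx4* stand about −10.1 kb, and around *Pitx1* the highest belong to promoters of other genes.

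The wild-type consensus list held 16 H3K27ac summits at *Tbx5*, 20 at *Tbx4* and 10 at *Pitx1*, covering 8.28, 8.26 and 6.96 kb. Replicate counts were 14 and 16 for *Tbx5*, 19 and 19 for *Tbx4*, and 10 and 12 for *Pitx1*. After C59 the consensus counts were 12, 16 and 8, and the replicate counts 18 and 15, 18 and 19, and 9 and 9. The wild-type and C59 replicates overlapped for *Tbx5* (exact permutation p = 0.67, two-sided) and *Tbx4* (p = 1.0) and did not for *Pitx1* (exact p = 0.33, the smallest possible). The share of all genes with counts that do not overlap is not given. All 7 regions of *Pitx1* (merged consensus peaks) had a summit in all 4 replicate lists. The wild-type consensus median coverage of the summits was 54.3 times background at *Tbx5*, 8.75 at *Tbx4* and 9.04 at *Pitx1*.

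The *Tbx5* domain consists of separate regions (merged peaks of the wild-type and C59 consensus lists) that stand 35.4, 28.1 and 1.33 kb upstream of the start and 2.95, 4.46 and 6.97 kb inside the gene. The region at 4.46 kb, in an intron, held the highest coverage of the locus, with 82.6 and 75.2 times background in the wild-type replicates and 76.0 and 79.3 times after C59. The region at −28.1 kb, chr5:119803254-119805791, held 69.5 and 68.3 times in the wild-type replicates and 58.3 and 51.4 times after C59. The region at −1.33 kb, over the start of the non-coding gene *Gm43050*, held 65.1 and 70.4 against 58.9 and 53.1. The region at −35.4 kb, chr5:119796437-119798140, held 29.8 and 26.7 against 21.7 and 19.2. Both C59 libraries were below both wild-type libraries in these last 3 regions, as in 34.6% of all regions tested. The groups overlapped at 4.46 kb and at 2.95 kb, where coverage was 72.9 and 64.5 against 65.9 and 52.8.

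The region of *Tbx5* with the highest fold was a weak isolated one at 175 kb, with a fold of 4.67 in the wild-type consensus. Its coverage was 6.32 and 4.85 times background in the wild-type replicates, and it sits beside the strongest β-catenin summit, whose nearest H3K27ac summit is 308 bp away. The region itself held no C59 summit, but the list of C59 replicate 2 has one just past its edge, with 4.71 times background, and the β-catenin summit lies inside that peak. Loss of this acetylation after C59 was thus not seen in both replicates.

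*Tbx4* had 12 regions, and the strongest by fold and coverage was not its promoter but the one at −10.3 kb, chr11:85875258-85877002. Its fold was 9.71 and 8.10 in the wild-type replicates and 11.2 and 9.16 after C59, at 31.6, 26.0, 39.1 and 28.6 times background. In the wild-type libraries it had over 4 times the coverage of the *Tbx4* start. The next regions by fold all lie downstream, at 55.6, 165, 40.2 and 39.0 kb, with wild-type consensus folds of 6.55, 5.40, 5.37 and 4.88. Their coverage did not pass 14.9 times background in any library.

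*Pitx1* had 7 regions, of which 4 were at promoters of other genes. These are *B230219D22Rik* at 143 kb (wild-type consensus fold 17.1), *Txndc15* at 121 kb (16.7), *Pcbd2* at 109 kb (15.0) and *Ddx46* at 201 kb (14.8). Their coverage ran from 27.6 to 214 times background over the 4 libraries. The strongest region at no annotated TSS lay at 79.4 kb in an intron of *Pcbd2*, with a wild-type consensus fold of 4.85 and a coverage of 11.2 and 8.32 times background in the wild-type replicates and 9.77 and 11.1 after C59. Every acetylated promoter listed in the *Pitx1* window belongs to a neighbour.

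In the wild-type consensus lists β-catenin and H3K27ac coincided at *Tbx4*, where 2 of 6 β-catenin summits of *Tbx4* lay in an H3K27ac peak (33.3%, 95% Wilson interval 9.68 to 70.0%), against 0 of 7 at *Tbx5* (up to 35.4%) and 0 of 2 at *Pitx1* (up to 65.8%). Over all wild-type β-catenin summits the share was 22.2%, inside all 3 intervals. Counting summits within 1 kb of an H3K27ac peak, the share was 28.6% at *Tbx5*, 50.0% at *Tbx4* and 0% at *Pitx1*. The share over all summits is not given at this wider limit, and 22.2% is no reference for it. The 2 *Tbx4* summits inside a peak are those at −10.3 and 165 kb. The first lay in a peak of every H3K27ac list. Among replicate lists, the second lay in a peak of wild-type replicate 2 and C59 replicate 2. Its region nevertheless had an H3K27ac summit in all 4 replicate lists. Coverage there was 7.44 and 8.32 times background in the wild-type replicates and 9.14 and 6.72 after C59. With the C59 H3K27ac peaks the numbers were 3 of 6, 0 of 7 and 0 of 2, against 23.0% of all, the added one being chr11:86016522, where wild-type replicate 1 also listed an H3K27ac summit nearby with 6.32 times background. At *Tbx5* the upstream β-catenin summit at −37.1 kb stood 1277 bases from the nearest wild-type H3K27ac summit.

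Most acetylated positions at the 3 genes were listed under both treatments. Of the wild-type H3K27ac consensus summits, 12 of 16 at *Tbx5* (75.0%, 50.5 to 89.8%), 18 of 20 at *Tbx4* (90.0%, 69.9 to 97.2%) and 8 of 10 at *Pitx1* (80.0%, 49.0 to 94.3%) lay in a C59 H3K27ac peak, against 89.1% of all. In the other direction 11 of 12, 13 of 16 and 8 of 8 C59 summits lay in a wild-type peak, against 90.9% of all. By regions, *Tbx5* had 2 of 8 with a summit in the wild-type consensus list only and 1 in the C59 list only, *Tbx4* had 1 and 2 of 12, and *Pitx1* had 0 and 0 of 7. Of all 21703 regions, 11.9% were in the wild-type list only and 9.46% in the C59 list only.

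Whether C59 changed the height of the acetylated regions was tested with limma on the log2 fold enrichment of each region's highest summit, over the 17219 regions with a summit in all 4 replicate lists. These include 5 regions of *Tbx5*, 9 of *Tbx4* and 7 of *Pitx1*. No region passed a Benjamini-Hochberg adjusted p of 0.05 (0%), with 1612 at an unadjusted p below 0.05, and 0 of the 21 regions at these genes passed. The differences, C59 minus wild-type on the log2 fold scale, ran from −0.02 to 0.21 at *Tbx5* (lowest adjusted p = 0.665), from −0.28 to 0.36 at *Tbx4* (0.499) and from −0.11 to 0.23 at *Pitx1* (0.709). Both C59 folds were below both wild-type folds in 2 of the 21 regions and above in 3, against 19.4% and 20.9% of all regions. On simulated data with this spread the test called 99 of 100 regions changed by 1 log2 unit. Changes below 1 log2 unit, the size of the differences at these genes, were not simulated.

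The lowest unadjusted p of the 21 was at a region 30.7 kb from the *Tbx4* start, just past the gene end, chosen here after its values were seen. Its fold was 4.83 and 4.33 in the wild-type replicates and 5.97 and 5.80 after C59, a difference of 0.36 ± 0.12 (SE) on the log2 scale with limma adjusted p = 0.499. At the *Tbx4* start the difference was −0.18 ± 0.19 (limma adjusted p = 0.818), and at the −10.3 kb region 0.19 ± 0.16 (adjusted p = 0.748). The wild-type and C59 replicates overlapped in both regions.

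The fold cannot show a change that a whole domain shares, because the expected coverage moves with it. At the *Tbx5* region of −28.1 kb the expected coverage at the summits of highest fold was 15.4 and 15.6 times background in the wild-type replicates and 13.0 and 12 after C59, and the fold there was 4.35, 4.31, 4.40 and 4.13. On coverage multiples in place of folds, all 5 tested *Tbx5* regions had a lower mean after C59, by between 0.02 and 0.47 log2 units. The lowest was at −35.4 kb, where C59 coverage was 0.724 of wild-type (log2 difference −0.47 ± 0.19, limma adjusted p = 0.199). The difference at −28.1 kb was −0.33 ± 0.19 (limma adjusted p = 0.368).

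None of the *Tbx5* regions passed the threshold on this scale, on which 352 of 17219 regions (2.04%) did, 288 of them lower after C59. The median region was itself lower by 0.10 log2 units after C59. Both C59 multiples were below both wild-type ones in 3 of 5 regions at *Tbx5*, 2 of 9 at *Tbx4* and 1 of 7 at *Pitx1*, against 34.6% of all regions, and above in 0, 1 and 1, against 13.1%. With every library centred on its median, the 3 regions of *Tbx5* at −35.4, −28.1 and −1.33 kb still had both C59 values below both wild-type ones, against 19.2% of all regions, with differences of −0.31, −0.17 and −0.12 and limma adjusted p from 0.309 to 0.662. On the same centred scale the region at 2.95 kb differed by −0.06 and that at 4.46 kb by 0.14, so that a lower mean in all 5 regions did not hold there. Both C59 values were lower in 1 region of *Tbx4* and 0 of *Pitx1*, and higher in 2 of each, which makes 4 lower and 4 higher over the 21 regions. The lower coverage in the 3 upstream *Tbx5* regions after C59 did not pass the test.

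**Figure D3:**
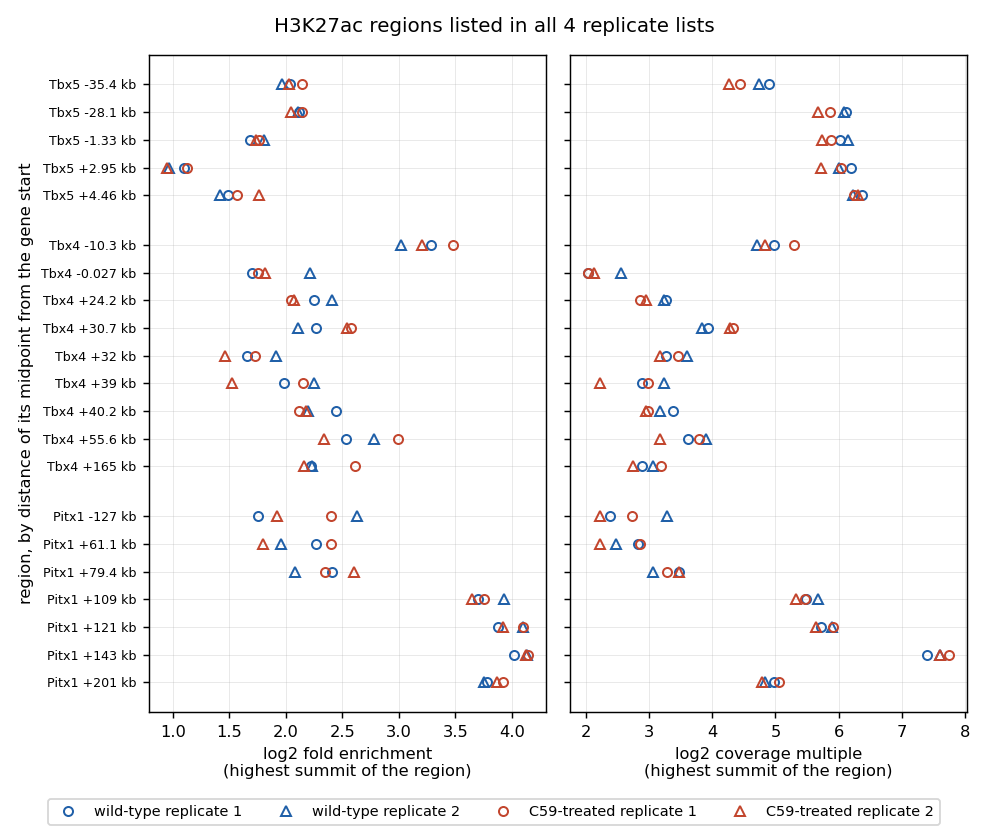
The 21 H3K27ac regions listed in all 4 replicate lists, 1 row each by distance from the gene start, with log2 fold enrichment (left) and log2 coverage multiple (right) of the highest summit in each wild-type (blue) and C59-treated (red) replicate. The upper 3 rows of *Tbx5* overlap on the left and stand apart on the right, by −0.47, −0.33 and −0.27.

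Other genes of limb type were read in the same way. Among genes of the hindlimb or posterior flank, *Hoxc9*, *Hoxc10* and *Hoxc11* had no H3K27ac summit less than 1 kb from a TSS in any of the 4 replicate lists. Within 200 kb of them, however, lay 27, 27 and 25 wild-type consensus H3K27ac summits. *Isl1*, which starts hindlimb buds, was listed in 3 of the 4 lists with coverage from 4.37 to 5.99 times background. All 4 anterior Hox genes (*Hoxc4*, *Hoxc5*, *Hoxa5* and *Hoxb5*) were in all 4 lists, with wild-type means from 14.2 to 28.4. *Tbx5* was above all of these, and *Tbx4* was at the level of *Isl1*.

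Of the limb initiation genes, *Fgf10*, *Sall4* and *Sall1* were in all 4 lists with wild-type means of 12.6, 53.9 and 30.8 times background, and *Wnt3*, an ectodermal WNT ligand gene, was in none. The T-box neighbours *Tbx2* and *Tbx3*, which pattern the anterior and posterior bud margins, had means of 20.9 and 41.9. Coverage at *Tbx3* was 43.9 and 39.9 in the wild-type replicates against 37.5 and 32.3 after C59, while at *Tbx2* the groups overlapped, with 19 and 22.9 against 22.1 and 19.8. Over all regions tested, 34.6% had both C59 multiples below both wild-type ones.

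The tissue label was checked against markers at the same TSS limit. All 6 limb bud mesenchyme genes (*Prrx1*, *Twist1*, *Msx1*, *Hand2*, *Lhx9* and *Meis1*) were in all 4 lists, with wild-type means from 28.7 to 110 times background. Of 5 heart genes, where *Tbx5* is also used, 3 lung and endoderm genes and 3 blood genes, 0 were in any of the 4 lists. Of 3 endothelial genes, *Kdr* was in no list, *Cdh5* was in wild-type replicate 2 and both C59 lists with 6.59, 4.10 and 5.38 times background, and *Pecam1* was in both C59 lists with 7.88 and 7.06 and in neither wild-type list. Of 4 ectoderm genes *Epcam* was in all 4 lists, at a wild-type mean of 5.74. *Dlx5* was in both wild-type lists, with 5.95 and 4.51, and in neither C59 list, while *Krt8* and *Wnt6* were in no list. For *Pecam1* and *Dlx5*, the share of all genes listed under 1 treatment only is not given. A summit on background needed from 3.47 to 3.72 times background to be listed. Of 3 muscle precursor genes *Lbx1* was in all 4 lists, at a wild-type mean of 10.3. *Pax3* was in wild-type replicate 2 and C59 replicate 2, with 6.24 and 4.03, and *Myod1* was in no list. The wild-type mean of 4.99 at the *Tbx4* start was close to that of *Epcam*, and which cells carry either was not tested.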

How the data were processed

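β-catenin and H3K27ac ChIP-seq of pooled forelimb buds, collected 6 h after DMSO or C59 at E10.5, was used with 2 replicates per antibody and treatment. For the 4 inputs no list was used here. The authors mapped reads with Bowtie2 2.4.5 on mm10 and called peaks with MACS2 2.2.7.1 without input, in each replicate (8 lists) and, after removing duplicates with Picard 2.27.4 and sub-sampling, on both replicates together (4 consensus lists). The deposited lists give per summit a fold enrichment, a ratio over the coverage expected in the same library, and the −log10 of the p-value and q-value. The offset of the summit in the peak gave its position. No list gives reads, and depth was taken from the values themselves.

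Fold and p were solved for whole-fragment coverage and expected coverage, and all summits were solved to within 0.05 of the deposited −log10 p. Coverage multiples divide by the lowest expected coverage of the library, which was from 1.57 to 1.83 fragments for β-catenin and from 2.69 to 3.17 for H3K27ac in the replicate lists. Positions were read on GRCm38 with GENCODE M21, and RefSeq promoter sequences, found for 1 of the 3 genes, were not printed. The sequence under 1 summit is not reported here. Intervals are 95% Wilson or exact Poisson and cover counting error only.

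H3K27ac regions were compared with limma 3.58.1 (R 4.3.3), with Benjamini-Hochberg adjustment at 0.05 over all regions tested, and without a replicate block. Replicate numbers do not pair the samples. The solving, overlap and limma steps were tested on simulated data. Calculations used Python 3.11.15, pandas 2.3.3 and scipy 1.17.1.

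Named sites were the wild-type β-catenin summits of each gene, H3K27ac summits less than 1 kb from its TSSs, and its 5 H3K27ac regions of highest wild-type fold. Genes, lists and tests were chosen with earlier results of these data known. The scaling of coverage multiples to each library's median and the T-box and PITX cores were added after seeing the data.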

Additional observations from a re-analysis of the deposited data

How the results depend on the processing

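Of 345 repeats of a result under another setting, 321 were kept and 24 counts or shares moved. Kept means the same side of the threshold, within 1.5 times the count or, for shares, within the 95% interval. A region test that passed under neither setting was kept even where its direction changed. At the *Tbx5* region of −35.4 kb the log2 difference was 0.08 on folds and −0.47 on coverage multiples. No region at the 3 genes passed the threshold under any setting run. The count of β-catenin summits in wild-type controls within 100 kb was 3 at *Tbx5* and 2 at *Tbx4*, and within 500 kb 12 at *Pitx1*, where C59 then had 1. Where the nearest protein-coding gene had to be the gene itself, it was 3, 2 and 1 at *Tbx5*, *Tbx4* and *Pitx1*, and H3K27ac at *Pitx1* had 0 summits under either treatment. Keeping summits nearer to *Tbx2* or *Tbx3* gave 15 β-catenin and 31 wild-type H3K27ac summits at *Tbx4* and 20 C59 H3K27ac summits at *Tbx5*. Counting H3K27ac peak regions in place of summits gave 8 wild-type and 6 C59 at *Tbx5*, and 10 wild-type at *Tbx4*. H3K27ac summits of *Pitx1* numbered 5 (wild-type) and 3 (C59) within 100 kb, and 53 and 47 within 500 kb. With 1 wild-type replicate left out, *Pitx1* had from 5 to 6 β-catenin summits in place of 2 in the consensus list, since the remaining list is no longer filtered by the other. Allowing 1 kb around a peak, the share of *Tbx5* β-catenin summits at an H3K27ac peak went from 0 to 28.6%. With the same allowance 100% of *Pitx1* wild-type H3K27ac summits met a C59 peak. With the shorter core TCAAAG 100% of the *Pitx1* windows held one. The shares over all summits are not given at these settings.

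Replicate 1 and replicate 2 share only a number: the deviations of same-numbered H3K27ac replicates correlated at 0.0141 over 17219 regions. With the replicate block limma called 0 regions, as without it. On coverage multiples it called 352 regions, 0 at these genes, and with those centred on each library's median 0. Leaving out any 1 of the 4 H3K27ac libraries also gave 0, the lone sample being assumed to vary like the other group. The C59 β-catenin lists were limited by their higher lowest −log10 p, 5.69 and 5.72 against 3.89 and 3.79 in wild-type controls, with library backgrounds of 1.83 and 1.82 against 1.57 and 1.81 fragments.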

Other observations

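*Tbx4* has 3 annotated start positions. Wild-type H3K27ac replicate 2 listed 1 summit near an internal one, 10.6 kb from the gene start, with a fold of 2.83 and a coverage of 3.47 times background, at the limit of that list. Neither the other wild-type replicate nor a C59 list had a summit there, and wild-type β-catenin replicate 2 listed 1 at 8.80 kb in an intron of *Tbx4* with a fold of 3.10 from 9 fragments. Inside the *Tbx5* body beyond its first 7.14 kb, only C59 replicate 2 listed an H3K27ac summit, at 34.7 kb with 4.71 times background.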
